A study of Mus musculus with 4 samples.

Results

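Among 14915 bone marrow stem and progenitor cells of young and aged mice, 237 cells (1.59%, exact 95% interval 1.39 to 1.80%) carried transcripts of at least 3 of 6 genes that are used in basophils and mast cells, namely Ms4a2, Csrp3, Cd200r3, Cyp11a1, Alox5 and Hdc. These cells were picked by a rule on measured values, as cells whose log UMI total lay within 2 standard deviations of the mean of their pool and that held 1 or more UMI (unique molecular identifier, 1 count per captured transcript) for 3 or more of the 6 genes. They are called the selected cells here, and all kept cells that missed the rule are called the other cells. Intervals on shares cover counting error only.

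The study captured single cells of male C57BL/6-CD45.2 mice by droplet sequencing of the 3′ ends of transcripts, after bone marrow had been depleted of lineage-positive cells and sorted as Sca-1+, c-Kit+ and Flt3-. The labels name no transgene and no treatment in any pool. Young mice were 2 to 3 months old and aged mice were 17 to 18 months old. The young A pool came from 2 mice, young B from 3, aged A from 3 and aged B from 2, and the letter A stands for capture and sequencing at HalioDX and B for TGML. Per the study, young A and aged B were sequenced to fewer reads per cell than aged A and young B. Within a platform, age and read depth thus cannot be told apart, and they run in opposite ways on A and B. Each age thus had 2 pools, and mice within a pool could not be told apart. Pools and not cells were the units of all tests. Gene tests estimated the spread between pools in part from all genes together. Their p-values and standard errors (SE) thus do not measure the spread of a single gene alone. Values given as a row of pools are always in the order young A, young B, aged A, aged B.

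Basophils and mast cells are the granulocytes that carry the high-affinity receptor for IgE and release histamine, leukotrienes and proteases when it is cross-linked. Both arise in the bone marrow from progenitors that depend on GATA2, with C/EBP alpha taking part in the basophil branch and MITF in the mast cell branch. In the mouse the serine proteases Mcpt8 and Prss34 are basophil products, while Cma1, Mcpt4 and the tryptases are products of connective tissue mast cells, and Cpa3 is shared by both.

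The free-text descriptions of young B and aged A name the other age, whereas titles and source names agree, and the latter were used. Nupr1, a stress gene known to rise in aged stem cells, stood at 13.2, 20.1, 375 and 553 CPM (UMIs per 1000000 UMIs of the same class and pool) in the other cells, so the pools titled young and aged separated. The 6 pairs of pools shared 119 cell barcodes, none of them a barcode of a selected cell in both pools. Selected cells numbered 128, 43, 36 and 30, with summed totals of 1094909, 347094, 268211 and 224423 UMIs. Their median depth was 7687.5, 7469, 6313 and 5606 UMIs per cell against 6039, 6274, 5669.5 and 6720.5 in the other cells, so they were deeper than the rest in 3 pools and shallower in aged B. Median mitochondrial shares were 2.45, 1.81, 2.62 and 2.27% in selected cells and 3.08, 2.76, 3.34 and 3.05% in other cells. Of 651 barcodes dropped for their total, 24 would have met the rule, all of them above the upper limit.

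The values that chose the cells are given as a description. Ms4a2, the beta chain of the IgE receptor (chr19:11615523-11623719), reached 891, 628, 1249 and 508 CPM in summed selected cells against 3.17, 1.81, 3.70 and 0.393 CPM in other cells. Hdc, which makes histamine, stood at 414, 426, 462 and 383 CPM against 5.12, 3.49, 4.92 and 1.03 CPM. Csrp3, a LIM domain protein best known from muscle, stood at 625, 847, 716 and 486 CPM against 10.4, 8.10, 7.99 and 3.45 CPM. These 3 genes were seen in 95.8, 93.2 and 93.2% of selected cells, whereas Cd200r3, an activating receptor of the CD200 receptor family, was seen in 59.1%, the steroidogenic enzyme Cyp11a1 in 64.6% and the leukotriene enzyme Alox5 in 63.3%. Csrp3 was not confined to selected cells, since erythroid-gated cells (defined further on) held 109, 167, 134 and 175 CPM of it.

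To show the upstream sequence of genes the selected cells are described by, windows from 250 bases before to 50 bases after the annotated start were read from RefSeq (GRCm38.p6). They include 2 genes of the rule, Ms4a2 and Cd200r3, and 4 genes it did not use, the proteases Prss34, Mcpt8 and Cpa3 and the IgE receptor alpha chain Fcer1a. Capitals mark AGATAA or TGATAA, the core letters of a GATA factor motif, on either strand, so that TTATCT and TTATCA are the same letters read from the opposite strand. Each sequence runs 5′ to 3′ along the strand of its gene.
Ms4a2, chr19:11623670-11623969, minus strand: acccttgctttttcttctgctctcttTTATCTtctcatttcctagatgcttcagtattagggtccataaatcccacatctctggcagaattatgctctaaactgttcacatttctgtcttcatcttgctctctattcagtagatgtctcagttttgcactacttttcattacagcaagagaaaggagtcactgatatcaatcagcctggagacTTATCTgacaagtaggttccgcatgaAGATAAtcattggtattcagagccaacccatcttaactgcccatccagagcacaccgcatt
Cd200r3, chr16:44943428-44943727, plus strand: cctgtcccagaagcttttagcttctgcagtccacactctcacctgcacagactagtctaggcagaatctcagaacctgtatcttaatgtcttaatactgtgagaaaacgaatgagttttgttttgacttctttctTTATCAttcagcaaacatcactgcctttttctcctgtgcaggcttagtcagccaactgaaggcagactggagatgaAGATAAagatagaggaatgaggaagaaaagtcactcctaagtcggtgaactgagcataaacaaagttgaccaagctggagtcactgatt
Prss34, chr17:25298144-25298443, plus strand: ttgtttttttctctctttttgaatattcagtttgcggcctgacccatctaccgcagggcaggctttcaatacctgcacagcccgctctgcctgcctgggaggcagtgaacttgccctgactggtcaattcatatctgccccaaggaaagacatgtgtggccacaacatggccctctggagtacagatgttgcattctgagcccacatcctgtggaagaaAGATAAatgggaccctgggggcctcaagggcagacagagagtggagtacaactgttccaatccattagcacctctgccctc
Fcer1a, chr1:173227180-173227479, minus strand: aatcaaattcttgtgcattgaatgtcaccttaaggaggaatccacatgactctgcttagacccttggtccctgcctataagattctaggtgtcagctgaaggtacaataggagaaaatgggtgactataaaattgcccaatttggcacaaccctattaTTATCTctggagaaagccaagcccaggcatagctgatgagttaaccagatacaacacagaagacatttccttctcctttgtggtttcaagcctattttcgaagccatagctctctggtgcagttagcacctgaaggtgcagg
Cpa3, chr3:20242132-20242431, minus strand: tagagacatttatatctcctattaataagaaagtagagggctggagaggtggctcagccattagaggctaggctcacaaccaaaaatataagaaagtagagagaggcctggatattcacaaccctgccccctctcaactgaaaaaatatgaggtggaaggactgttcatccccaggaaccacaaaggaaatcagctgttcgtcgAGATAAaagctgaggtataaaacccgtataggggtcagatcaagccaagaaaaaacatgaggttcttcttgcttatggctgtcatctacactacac
Mcpt8, chr14:56085148-56085447, minus strand: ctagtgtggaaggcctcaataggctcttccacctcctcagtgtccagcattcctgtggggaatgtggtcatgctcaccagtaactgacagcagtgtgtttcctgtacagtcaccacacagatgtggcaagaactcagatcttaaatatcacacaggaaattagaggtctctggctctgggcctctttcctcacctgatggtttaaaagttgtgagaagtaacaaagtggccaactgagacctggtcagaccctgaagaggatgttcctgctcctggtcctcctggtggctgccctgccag

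The Ms4a2 window held these letters 3 times, with first bases at -224, -37 and -11 from the start, and that of Cd200r3 held them at -115 and -39. Single matches lay at -31 in Prss34, -92 in Fcer1a and -46 in Cpa3, and the Mcpt8 window held none. Of 32851 RefSeq windows of the same length, 6115 (18.6%) held 1 or both motifs, as did 1 or more windows of 5664 of 27025 genes (21.0%). Of the 6 rule genes 2 had a match, as had 4 of the 8 genes with a RefSeq window among the 10 with the largest fold over the other cells (Prss34, Fcer1a, Il6 and D430036J16Rik). A match describes letters and not a bound site.

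By markers outside the rule, the selection was basophil in character far more than mast. In the test described further on, the 6 basophil markers tested were all higher than in other cells. They were Mcpt8, Prss34, Fcer1a, Il4, Ccl3 and Cd69. The remaining listed basophil markers, Ms4a2 and Cd200r3, are rule genes, which were left out of every test. All 8 basophil markers had counts, but those of Ms4a2 and Cd200r3 were part of the selection. The sum of all 8, these rule genes included, was 59442, 96573, 56679 and 86640 CPM, with Prss34 the most abundant. In other cells the same sum was 196, 86.2, 168 and 34.0 CPM. The 8 markers of mature mast cells summed to 109, 57.6, 209 and 401 CPM, with Cma1 the most abundant and Mcpt4, Tpsab1 and Tph1 at 0 UMIs. Cma1 was seen in 4 selected cells, the tryptase Tpsb2 in 1 cell with 11 UMIs, and Mitf in 2 cells. The name "mast" in the label therefore rests on Cpa3, Hdc, Ms4a2 and other genes that both lineages use, and the cells are not called mast cells here.

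Markers of other lineages were present too. The sum of 14 neutrophil markers was 5773, 5851, 5291 and 7624 CPM against 1057, 1213, 1577 and 1422 CPM in other cells, with Ctsg the most abundant and Fcnb, Ltf and Ngp at 0. A neutrophil rule (1 or more UMI for 4 or more of Elane, Prtn3, Mpo, Ccl9, BC035044 and Ly6c2) was also met by 38, 2, 9 and 6 selected cells, 55 in all. An erythroid rule (3 or more of Klf1, Car1, Aqp1, Tspo2, Mfsd2b and Ermap) was met by 5 and a T and innate lymphoid rule by 1, so 59 selected cells (24.9%) met 1 or more other rules. No doublet caller was run. Leaving these 59 cells out served as an alternative for the share, the contrast with other cells and the age contrasts of selected cells. The 8 eosinophil markers summed to 388, 4048, 2103 and 0 CPM, of which a single young B cell gave 1331 Prg2 UMIs, and Prg2 was seen in 10, 2, 3 and 0 cells.

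The selected cells were far from uniform in the 2 basophil proteases. Mcpt8 (chr14:56082166-56085273) and Prss34 (chr17:25298394-25300165) together made up 5.68, 9.31, 5.31 and 8.16% of all UMIs of selected cells. Per cell the share ran from 0 to 39.1%, with medians of 2.68, 9.86, 4.96 and 9.89%. Of the 237 cells 94 reached 10% or more and 153 reached 1%, whereas 84 stayed below 1%, 67 of them below 0.1%, and 20 held no UMI of either gene. Every pool held cells at both ends, with 79, 31, 22 and 21 cells at or above 1%.

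**Figure D1:**
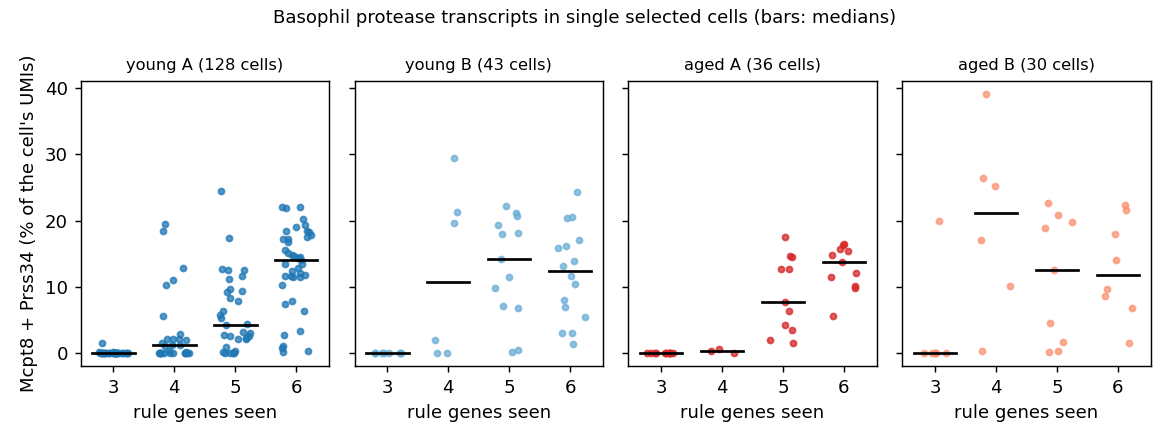
Share of each selected cell's UMIs that came from Mcpt8 and Prss34 (y axis, percent) against the number of rule genes seen in that cell (x axis), 1 panel per pool with 128, 43, 36 and 30 cells, black bars for medians. Cells with 3 rule genes lie near 0 in every pool apart from 1 cell at 19.9% in aged B and 1 at 1.51% in young A, and most cells with 5 or 6 rule genes lie well above 1%.

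The protease share was near 0 in cells with 3 rule genes and higher in cells with 5 or 6. Cells with 3 rule genes, just inside the limit, numbered 53 and had a median share of 0.0140%, close to the 0.0123% of the 94 cells with 2 genes that fell just outside it. Cells with 4, 5 and 6 genes numbered 43, 65 and 76. Their medians were 1.17, 4.32 and 14.1% in young A and 0.329, 7.78 and 13.8% in aged A, and thus higher at each step on platform A, but 10.8, 14.2 and 12.4% in young B and 21.2, 12.5 and 11.8% in aged B, where they were no higher with 6 genes than with 5. The cells with 4 genes numbered 28, 6, 3 and 6. Median totals from 3 to 6 genes were 8617, 7640, 7360 and 8294 UMIs in young A, 6846, 10176, 7834 and 7317.5 in young B, 6962, 6390, 6404 and 5154 in aged A and 5241, 4918, 6112 and 6226 in aged B. Depth thus moved in different ways among pools, and its part was not tested. Summed over all pools, of which young A gave the most cells, Cpa3, the mast cell carboxypeptidase, was 642, 1347, 3304, 4146 and 5110 CPM from 2 to 6 genes, and Fcer1a was 7.69, 142, 884, 1452 and 2086 CPM. Not every pool rose at each step. Cpa3 in aged B was 584, 1496, 8033, 4838 and 4890 CPM, and Fcer1a in young B was 0, 250, 2398, 1942 and 1883 CPM. These series describe cells that were ordered on genes of the same profiles and carry no test.

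Other genes were lowest in cells with all 6 rule genes when summed over all pools, though not in each pool or at each step. Cd34, a marker of progenitors, was 220, 219, 200, 112 and 50.2 CPM from 2 to 6 genes, while in aged A it was 189, 241, 442, 69.7 and 29.3 CPM. The sum of 12 genes that mark stem cell identity was 499, 298, 234, 337 and 149 CPM, and in aged B 344, 417, 338, 345 and 169.8 CPM. Lmo4, a LIM-only transcriptional cofactor, peaked in between, at 166, 706, 915, 699 and 430 CPM. Split at a protease share of 1%, the 84 low cells held 232 CPM of Cd34 and 77.2 CPM of Kit against 70.0 and 38.0 CPM in the 153 high cells, while Cd63, a granule membrane protein, was 1410 against 3810 CPM, and these 3 directions held in each pool. The low cells were deeper (median 8795 against 6907 UMIs), and 29 of them (34.5%) met the neutrophil rule against 26 of the high cells (17.0%). By pool these shares were 44.9, 0, 21.4 and 44.4% of low cells against 20.3, 6.45, 27.3 and 9.52% of high cells, so they differed in opposite directions among pools, and their part in the values above was not tested.

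Next, summed counts of the selected cells were set beside those of the other cells of the same pool with edgeR's quasi-likelihood test and Benjamini-Hochberg adjustment, the pool being a block and the 6 rule genes left out. Of 11552 genes tested, 1456 were higher in selected cells (12.6%) and 1535 were lower (13.3%). Since the cells were chosen on genes of the same profiles, genes that track those 6 had to differ, and the counts below describe the selection without supporting it. The median log2 difference over all tested genes was -0.13. The count of 2991 differing genes fell to 1892 without young A, the pool with the most selected cells.

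Granule genes came first. All 8 of the 14 granule and protease genes that passed the filter were higher, with a median log2 difference of 3.42. Mcpt8 summed to 23158, 40865, 22270 and 33949 CPM in selected cells against 77.2, 25.2, 66.1 and 10.98 CPM in other cells. Its log2 difference was 9.85 ± 0.18 (SE of the edgeR fit, as are those below). That SE is narrower than the spread of these levels between pools. Prss34 summed to 33655, 52225, 30793 and 47607 CPM against 74.7, 24.3, 60.0 and 9.65 CPM, a difference of 10.41 ± 0.18 (adjusted p = 4.62e-163). Both were higher in B pools than in A pools among selected cells and lower in B pools among other cells.

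A low count of these 2 genes was spread over cells that should lack them. Mcpt8 had 1 or more UMI in 38.7, 15.5, 31.7 and 7.30% of other cells, at the median depths given above, and in 37.9, 8, 64 and 0% of lymphoid-gated cells (29, 25, 25 and 5 cells, median 5732, 5684, 6500 and 11570 UMIs). In cells without a single rule gene UMI its level was 0.319, 0.0584, 0.284 and 0.0281% of that in selected cells. Shares of this size outside the selection are not counted as expression here, and the source of these UMIs was not tested. The ratio of Prss34 to Mcpt8 UMIs was 1.45, 1.28, 1.38 and 1.40 in selected cells and 1.01, 1.03, 0.934 and 1 in cells without a rule gene UMI. Neutrophil-gated cells held 118, 55.8, 174 and 136 CPM of Mcpt8 and ratios of 0.624, 0.217, 0.470 and 0.0758. Low ratios were also found in the lymphoid-gated cells of aged A (0.286, from 21 Mcpt8 and 6 Prss34 UMIs) and the erythroid-gated cells of young B (0.538, from 13 and 7 UMIs).

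Cpa3 (chr3:20215620-20242181) summed to 3225, 3691, 4370 and 4500 CPM in selected cells and 54.2, 36.3, 48.4 and 10.8 CPM in the rest, a log2 difference of 7.07 ± 0.15, and was seen in 97.0% of selected cells. Cd63 was 2.28 ± 0.11 higher and Cst7, the inhibitor cystatin F, 4.56 ± 0.14 higher. Srgn, the core protein of granule proteoglycan, was 1.32 ± 0.10 higher and Slc18a2, the transporter that loads histamine into granules, 1.30 ± 0.18 higher. Gzmb, granzyme B, could not be fitted and was seen in 17 selected cells, none of them in aged A.

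Among 14 genes of the IgE receptor and its signalling, 7 were higher, 1 was lower and the median was 0.52. Fcer1a (chr1:173221284-173227214) stood at 729.7, 1703, 1517 and 2580 CPM against 1.67, 0.872, 5.02 and 1.54 CPM, 9.65 ± 0.17 higher, and in contrast to Mcpt8 it was seen in only 1.17, 0.636, 2.49 and 1.04% of other cells. The shared signalling chain Fcer1g was 4.27 ± 0.12 higher, the related adaptor Tyrobp 5.65 ± 0.14 higher and the adaptors Lat and Lat2 1.28 ± 0.14 and 3.69 ± 0.14 higher. The proximal kinases Lyn (0.43 ± 0.26) and Syk (-0.31 ± 0.31) did not pass the test, and the phospholipase Plcg2 was lower by 1.06 ± 0.26 on the log2 scale, with levels of 20.1, 11.5, 26.1 and 8.91 CPM.

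Of 9 genes tested for eicosanoids and histamine, 5 were higher and 3 lower. Alox5ap, which presents arachidonic acid to 5-lipoxygenase, stood at 733, 1109, 884 and 909 CPM, 1.78 ± 0.11 higher. The lipoxygenases Alox15 (7.88 ± 0.35) and Alox12e (9.45 ± 0.62) and the leukotriene B4 receptor Ltb4r1 (4.73 ± 0.21) were higher as well. Ltc4s, which makes leukotriene C4, stood at 6.39, 2.88, 0 and 0 CPM and Ptgs1, the constitutive cyclooxygenase, at 13.7, 2.88, 18.6 and 13.4 CPM, and both were lower than in other cells (log2 differences of -1.44 ± 0.52 and -2.06 ± 0.26).

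Receptors for the cytokines of these lineages split. Il3ra, the alpha chain of the IL-3 receptor, stood at 147, 164, 108 and 165 CPM against 23.3, 21.2, 18.8 and 19.2 CPM, 2.99 ± 0.16 higher. Its shared beta chain Csf2rb was 3.57 ± 0.26 higher, the IL-33 receptor Il1rl1 4.14 ± 0.34 higher and the TSLP receptor Crlf2 0.41 ± 0.13 higher. Kit, the receptor for stem cell factor that mature mast cells retain, was lower, at 51.2, 34.6, 104 and 35.7 CPM against 101, 75.8, 165 and 71.9 CPM (log2 difference -0.72 ± 0.17), and so was Csf3r, the receptor for G-CSF (-1.84 ± 0.44). In all, 7 of 12 tested receptors were higher and 3 were lower.

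All 7 tested cytokine and chemokine genes were higher, with a median of 3.58. Il6 stood at 38.4, 51.9, 55.9 and 84.7 CPM against at most 0.292 CPM in other cells (8.53 ± 0.41) and was seen in 29.1% of selected cells. The chemokine Ccl3 stood at 490.5, 516, 231 and 1239 CPM, 6.15 ± 0.17 higher, and Csf1 was 3.85 ± 0.29 higher. Il4, the hallmark basophil cytokine, stood at 41.1, 34.6, 55.9 and 31.2 CPM against 10.3, 7.48, 14.7 and 4.14 CPM (2.34 ± 0.27) and was seen in 33, 10, 9 and 6 cells. Il13 was seen in 0.422% of selected cells. Ccr1, a chemokine receptor seen in 48.1% of selected cells, the orphan receptor Gpr34, the adhesion molecule Cdh1, the tryptase-like Prss28 and the unannotated D430036J16Rik completed the 10 largest differences, at 9.87 ± 0.34, 8.40 ± 0.36, 8.51 ± 0.44, 9.17 ± 0.74 and 8.32 ± 0.62.

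**Figure D2:**
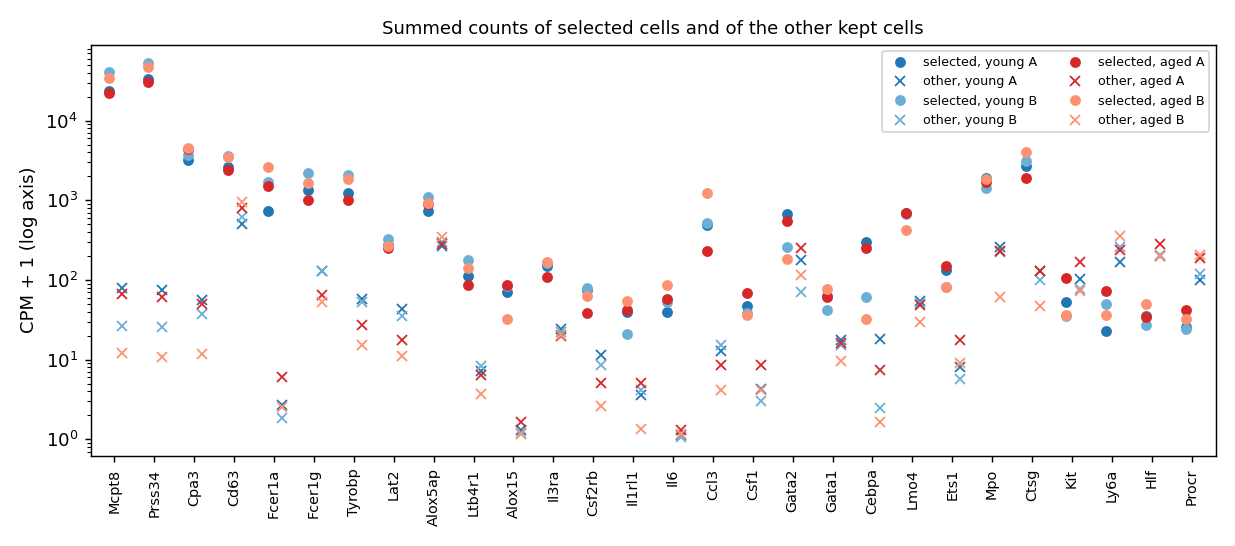
Summed CPM plus 1 (log axis) of 28 genes in selected cells (circles) and other cells (crosses) of each of the 4 pools, young in blue and aged in red. Basophil and mast genes on the left lie far above the crosses in every pool, and Kit, Ly6a, Hlf and Procr on the right lie below them.

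Of 20 lineage transcription factors 12 were higher and 2 lower, with a median of 0.95. Gata2 (chr6:88193891-88207032) stood at 675, 256, 552 and 183 CPM against 175, 70.1, 249 and 114 CPM, 1.66 ± 0.13 higher, and was seen in 90.7% of selected cells. Cebpa stood at 301, 60.5, 249.8 and 31.2 CPM (4.96 ± 0.19), Gata1 at 62.1, 40.3, 59.7 and 75.7 CPM (2.25 ± 0.23) and Ets1 was 3.95 ± 0.20 higher. Lmo4 stood at 695, 666, 689.8 and 419 CPM, 3.98 ± 0.13 higher. Mitf, in 2 cells, did not pass the test (-1.28 ± 0.82, adjusted p = 0.259), and Irf8, which drives monocytes and dendritic cells, was lower by 2.22 ± 0.58 on the log2 scale.

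Levels of several factors went with the platform, as those of Gata2 above. Cebpb stood at 326, 5.76, 276 and 0 CPM in selected cells and at 63.0, 0.997, 181 and 0.877 CPM in other cells, so both B pools were near 0 in both classes. Cebpa likewise stood at 301 and 249.8 CPM in A pools and at 60.5 and 31.2 CPM in B pools of selected cells. The part of the platform in these levels was not tested, and the class differences above were taken within pools.

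Stem cell genes were lower throughout. All 12 stem cell identity genes were lower (median -2.40), Hlf with 33.8, 25.9, 33.6 and 49.0 CPM against 201, 207, 278 and 197 CPM (-2.44 ± 0.17) and Procr at -2.05 ± 0.19. Of 6 tested genes of the sort and its subsets, 5 were lower. Ly6a, which encodes Sca-1, stood at 21.9, 49.0, 70.8 and 35.7 CPM against 168, 258, 235 and 357 CPM (-2.39 ± 0.17) and was seen in 17.3% of selected and 67.1% of other cells. Flt3 (-2.02 ± 0.42), Cd34 (-0.40 ± 0.15) and Slamf1 (-3.03 ± 0.52) were lower, and Cd48 was higher (2.45 ± 0.15).

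The 10 largest differences in the other direction were those of Snn, Tbkbp1, Socs2, Efna1, Sdc2, Gm11837, Cyp2j9, Hbb-bt, Unc45b and Hoxb5, at -4.12 to -3.07 on the log2 scale. Single pools moved some of them far. Without young A, Snn and Gm11837 each stood at -10.5 and Tbkbp1 at -2.77, while Tbkbp1 was -10.7 without aged A. Efna1 was not called without the block (-4.07, edgeR adjusted p = 0.0521), nor Sdc2 when thinned (-2.75, adjusted p = 0.0787). Socs2, a feedback inhibitor of cytokine signalling, was seen in 2.11% of selected and 16.3% of other cells. Of the cycle genes, 10 of 15 S phase genes and 8 of 13 G2/M genes were higher and none was lower, with medians of 0.51 and 0.61. Of 10 erythroid genes 1 was higher and 5 were lower, and of 9 megakaryocyte genes 3 were higher and 4 were lower. Among 7 T and innate lymphoid genes 2 were higher and 1 was lower, among 5 B and plasma cell genes 2 were lower, and among 5 monocyte and dendritic genes 1 was higher and 3 were lower.

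Of 10 tested neutrophil genes 6 were higher in selected cells and 2, Prtn3 and Ly6c2, were lower. Ctsg, cathepsin G, stood at 2689, 3083, 1879 and 4059 CPM against 127, 99.7, 129 and 46.6 CPM in other cells (5.08 ± 0.14), Mpo, myeloperoxidase, was 3.49 ± 0.13 higher and Ms4a3, a gene of granulocyte and monocyte progenitors, 5.19 ± 0.14 higher. Without the selected cells that met another rule, Ctsg still stood at 2885, 3131, 1734 and 4317 CPM and Mpo at 1681, 1492, 1196 and 1864 CPM. Elane was lower without them in 3 pools, since it stood at 178, 219, 339 and 129 CPM with these cells and at 86.3, 239, 59.8 and 31.3 CPM without them. Prtn3, proteinase 3, was lower than in other cells (-0.85 ± 0.12).

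To place the selected cells among primed cells, they were compared within pools with neutrophil-gated cells (284, 95, 90 and 38) and erythroid-gated cells (228, 58, 100 and 54), leaving out cells that met both rules and the genes of both. This left 90, 41, 27 and 24 selected cells in the first comparison and 125, 42, 35 and 30 in the second, while levels quoted in CPM are those of all selected cells. Against neutrophil-gated cells 702 of 5576 genes were higher (12.6%) and 709 were lower (12.7%). Both counts together were 692 without young A. Against erythroid-gated cells 924 of 5538 genes were higher (16.7%) and 810 were lower (14.6%). The gates fix part of these differences, as above. Median depth was 9913.5, 12114, 9653.5 and 12409.5 UMIs in neutrophil-gated and 8402, 10812.5, 6683 and 9516 UMIs in erythroid-gated cells, more than in selected cells of each pool.

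Of 8 tested granule and protease genes 7 were higher than in neutrophil-gated and 8 than in erythroid-gated cells, and all 6 and all 7 tested cytokine genes were higher. Of IgE signalling genes 6 of 12 were higher and 1 was lower (Plcg2) in the first comparison and 6 of 10 were higher in the second, and of eicosanoid and histamine genes 3 of 5 were higher and 1 was lower (Lta4h) in the first and 4 of 6 were higher in the second. Fcer1a was 9.04 ± 0.23 over neutrophil-gated and 8.46 ± 0.27 over erythroid-gated cells, Mcpt8 8.31 ± 0.22 and 9.41 ± 0.26, and Cpa3 3.59 ± 0.14 and 6.08 ± 0.13. Cpa3 in neutrophil-gated cells was 357, 239, 657 and 336 CPM and thus well above the 69.4, 47.9, 65.8 and 67.9 CPM of erythroid-gated cells. Alox15 had 0 UMIs in both gated classes, which makes it at least 125-fold and 95.5-fold higher in selected cells against a floor of 3 counts over each class. Likewise Il6 and Sytl3 were at least 86.3-fold and 53.3-fold higher than in neutrophil-gated cells, and Ccr1 and Lilr4b at least 149-fold and 61.1-fold higher than in erythroid-gated cells. Gpr34 (8.28 ± 0.45) was also among the 8 largest differences against neutrophil-gated cells, and Cyp4f18 (8.31 ± 0.32) and Rnase12 (8.09 ± 0.25) were among those against erythroid-gated cells.

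Transcription factors separated the 3 classes. Gata2 was higher in selected cells than in either class, by 2.95 ± 0.14 and 1.35 ± 0.12, and neutrophil-gated cells held 96.1, 39.1, 115 and 22.7 CPM of it. Gata1 was 2.83 ± 0.29 higher than in neutrophil-gated cells but lower than in erythroid-gated cells by 1.12 ± 0.17 on the log2 scale, where it stood at 123, 150.2, 188 and 144 CPM. Cebpa was higher than in both, by 1.78 ± 0.19 and 5.20 ± 0.27, and so were Lmo4 (3.16 ± 0.13 and 4.11 ± 0.15), Ets1 (4.76 ± 0.28 and 5.87 ± 0.30) and Runx1. Spi1, the myeloid factor PU.1, did not pass the test against neutrophil-gated cells (-0.09 ± 0.13) and was 2.09 ± 0.15 higher than in erythroid-gated cells. Counted over the list, 9 of 16 factors were higher and 2 lower than in neutrophil-gated cells (median 1.13 against -0.06 for all genes), and 8 of 15 higher and 5 lower than in erythroid-gated cells (median 0.59 against -0.03).

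**Figure D3:**
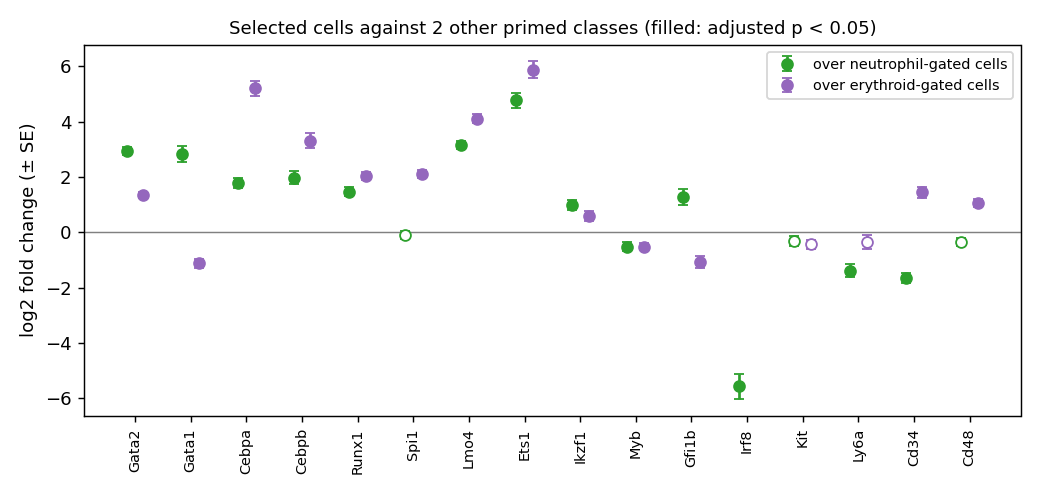
Log2 differences (± SE of the edgeR fit) of 12 transcription factors and 4 genes of the sort between selected cells and neutrophil-gated (green) or erythroid-gated cells (purple), filled where the adjusted p was under 0.05. Gata1 and Gfi1b lie above 0 in green and below 0 in purple, while Gata2, Cebpa, Lmo4 and Ets1 lie above 0 in both.

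Other genes were lower in selected cells. Irf8 was 5.56 ± 0.45 log2 units lower in selected cells than in neutrophil-gated cells, in which it stood at 73.7, 63.3, 100.3 and 159 CPM against 1.83, 2.88, 3.73 and 4.46 CPM. Bex6 (-5.03 ± 0.45), Ighm (-3.45 ± 0.33), 2700038G22Rik, Unc93b1, Tfec, 1700025G04Rik and Aig1 followed. Ighm was lower than in neutrophil-gated cells by the most in aged A, where those cells held 2347 CPM against 65.4, 52.1 and 64.0 CPM in the rest. Without aged A the Ighm difference was -1.86. Without the block it was -4.29 and was not called by edgeR (adjusted p = 0.0965). Against erythroid-gated cells Slc38a5, an amino acid transporter of erythroid precursors, had 0 UMIs in selected cells and was at least 23.3-fold lower, and Prss50, Rhd, Gm15915, Ces2g, Samd14, Trib2 and Tnfaip2 were lower by 6.27 to 3.94 log2 units. Of the marker lists themselves, 3 neutrophil markers outside the gates were tested against neutrophil-gated cells, of which Ctsg and Ms4a3 were higher and none was lower, and all 3 erythroid markers tested against erythroid-gated cells (Car2, Epor and Blvrb) were lower.

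Genes of the sort did not run in 1 direction. Kit did not pass the test against either class (-0.32 ± 0.19 and -0.44 ± 0.18). Cd34 was lower than in neutrophil-gated cells (-1.66 ± 0.18) and higher than in erythroid-gated cells (1.45 ± 0.20), and Ly6a was lower than in neutrophil-gated cells only (-1.38 ± 0.23, and -0.36 ± 0.26 against erythroid-gated cells), a contrast between classes that was not tested. Of 9 immediate early genes 8 were higher than in each class. Of the S phase genes 3 were higher and 7 lower than in neutrophil-gated cells.

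The share of selected cells was lower in aged pools. It was 2.47% (exact 95% interval 2.06 to 2.93%) in young A, 1.92% (1.39 to 2.57%) in young B, 1.08% (0.759 to 1.49%) in aged A and 0.722% (0.488 to 1.03%) in aged B. The ages did not overlap, with means of 2.19 ± 0.389% and 0.902 ± 0.254% (SD, n = 2 pools each). The difference of -1.29 percentage points gave p = 0.33 in an exact two-sided permutation test, the smallest p that 2 pools against 2 allow. Within platforms the share in aged pools was 0.439 times (A) and 0.377 times (B) that of the young pool.

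**Figure D4:**
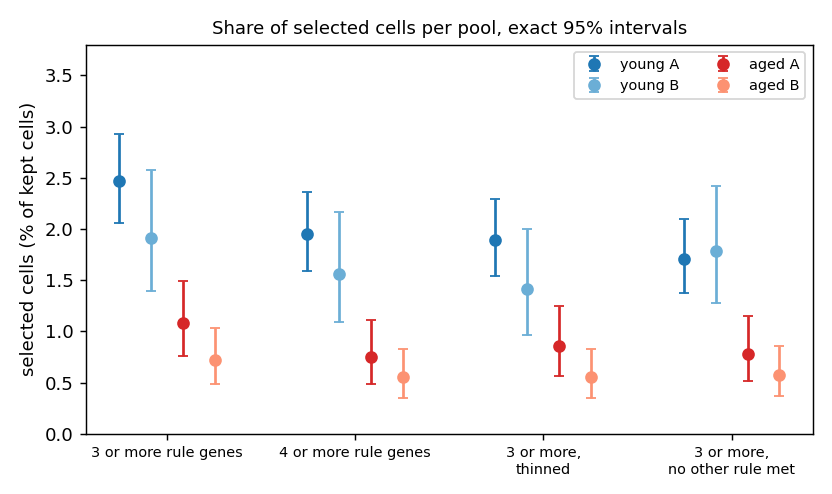
Share of selected cells among kept cells (y axis, percent) in each pool under 4 definitions, with exact 95% binomial intervals for counting error, young pools in blue and aged pools in red. Both aged pools lie below both young pools under every definition.

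Both aged pools stayed below both young pools under other definitions. With 4 or more rule genes the shares were 1.95, 1.56, 0.751 and 0.554%, and after thinning each cell to 3000 UMIs they were 1.89, 1.41, 0.857 and 0.554%. Without selected cells that met another rule they were 1.71, 1.78, 0.784 and 0.579%. Neutrophil-gated cells made up 5.47, 4.23, 2.70 and 0.915% and erythroid-gated cells 4.39, 2.58, 3.00 and 1.30% of kept cells. Aged over young ratios were 0.494 and 0.216 for the former and 0.684 and 0.503 for the latter on platforms A and B. Lymphoid-gated cells, at 0.559, 1.11, 0.751 and 0.120%, had ratios of 1.34 and 0.108 and so were higher in the aged pool of platform A. Whether the classes differ in these ratios was not tested. Shares do not give cells per mouse.

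Within the selected cells, few genes differed with age. With platform as a block, 1 of 3834 genes (0.0261%) passed the adjusted threshold, and 105 had an unadjusted p under 0.05. DESeq2 called 1 gene too and had 12 at that level. The gene was Cma1, mast cell chymase (chr14:55941451-55944675), at 0, 2.88, 160.3 and 294 CPM (log2 difference 7.58 ± 0.58, adjusted p = 0.00886). Its difference stayed large but was not called without aged A (8.31, adjusted p = 0.166), without aged B (7.25, 0.109), when thinned (6.48, 0.176) or without the platform block (7.82, 0.497). It rested on 2 cells, one with 42 UMIs in aged A and one with 66 UMIs in aged B, and without the highest cell of each pool it stood at 0, 0, 3.79 and 0 CPM. With 1 pool left out the count was 33 without young A, 14 without young B and 0 without aged B.

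None of the basophil genes fixed for this contrast passed. Mcpt8 and Prss34 had log2 age differences of -0.23 ± 0.33 and -0.20 ± 0.34, and Cpa3 of 0.30 ± 0.26, higher in the aged pool on both platforms by 0.44 and 0.29. Fcer1a, at 0.76 ± 0.26, was higher in aged pools on both platforms by 1.06 and 0.60, yet its adjusted p was 0.9999 and the ages overlapped, young B lying above aged A. Single pools moved it, to 0.17 without young A, 0.095 without aged B and 1.51 without young B, not called in any of these fits. Gata2 followed the platform, with 675 and 552 CPM in A pools and 256 and 183 CPM in B pools, and its age difference of -0.45 ± 0.24 did not pass. All of the 13 tested transcription factors and 6 tested cytokine receptors stayed short of the threshold. Pools held 30 to 128 selected cells, and a gene that misses the threshold was not shown to be equal between ages.

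The summed level of aging-induced genes was higher in aged pools of both classes, while of the 3 of these 12 genes that could be tested in selected cells none was called and 2 had a positive difference. The 12 genes summed to 98.6, 149.8, 347 and 544 CPM in selected cells against 140, 146, 1348 and 1607 CPM in other cells. The ages did not overlap (p = 0.33, exact permutation, the smallest possible), with log2 ratios of 1.81 and 1.86 on platforms A and B. Clu, clusterin, stood at 0.913, 0, 44.7 and 26.7 CPM in selected cells, too few to be tested, and at 6.19, 10.5, 146 and 196 CPM in other cells. Nupr1 stood at 0, 51.9, 101 and 107 CPM in selected cells (2.77 ± 1.01, adjusted p = 0.9999). Without young B, which leaves a young pool at 0 UMIs, it was called (8.78, adjusted p = 8.96e-11), as with no low-count filter (2.72, adjusted p = 1.62e-06), whereas without young A it was 0.87 and not called.

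Of 22 gene lists summed in selected cells, 8 did not overlap between ages, a separation that has p = 0.33 for any list in an exact permutation test of 2 pools against 2, so the sums below are given as values. The megakaryocyte sum, 386, 225, 388 and 1693 CPM, is among the 8, and 1 cell gave 289 Pf4 UMIs of its aged B value. No gene of the G2/M (10 tested) or stem cell identity lists (4 tested) was called on its own. G2/M genes summed to 1234, 959, 940 and 423 CPM in selected cells, with young above aged on both platforms (log2 ratios of -0.39 and -1.18). The exact permutation test gave p = 0.33, again the smallest possible, while S phase genes, at 1661, 1314, 1775 and 1163 CPM, overlapped. Immediate early genes summed to 1869, 703, 2774 and 2059 CPM, higher in both aged pools than in either young pool, and none of the 9 tested passed on its own. Stem cell identity genes, at 225, 196, 373 and 316 CPM against 1098, 1105, 1866 and 1653 CPM in other cells, were likewise higher in both aged pools and in both classes.

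**Figure D5:**
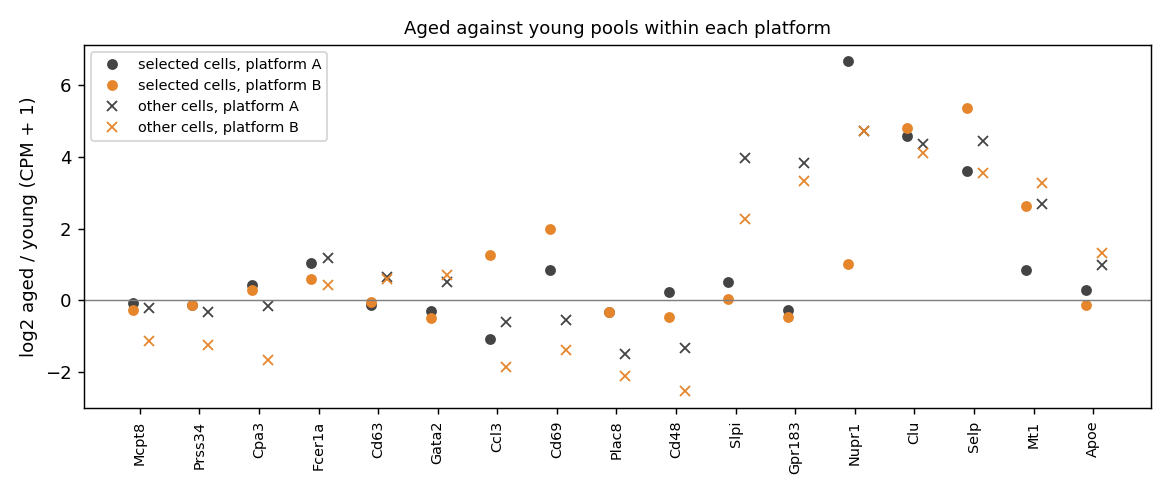
Log2 ratio of aged to young summed CPM plus 1 (y axis) for 17 genes in selected cells (circles) and other cells (crosses) on platform A (grey) and B (orange). For Slpi, Gpr183, Cd48 and Plac8 the crosses lie far from 0 and the circles near it, while Clu and Selp lie above 0 in both classes.

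To ask whether age differences of the selected cells depart from those of the remaining cells, the class by age term was tested. It was called for 39 of 12492 genes (0.312%), with 22 gaining and 17 losing in selected cells relative to the rest. For 25 of the 39 the age difference of other cells exceeded that of selected cells on both platforms. In other cells alone 168 of 13554 genes (1.24%) were called by age, 141 of them higher in aged pools, and 295 without young A, but the call of every one was lost without aged A or without aged B. In summed counts, fewer cells of a type and less RNA per cell cannot be told apart, and the shares of neutrophil-gated and erythroid-gated cells among other cells were lower in the aged pool of each platform, whose part here was not tested. Without the pool as a block, which drops the pairing of both classes within a pool, all 39 calls were lost. The differences themselves stayed close to those with the block, at 1.73 for Cd52, 2.12 for Cd69, -4.83 for Gpr183 and -3.46 for Slpi (adjusted p = 0.99997 for each).

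Some genes that gained differed little with age in selected cells and had lower levels in aged other cells. Of the 39 called genes, 8 were also called by age in other cells, against 168 of all 13554 genes tested there (1.24%). Both tests used the same counts of other cells, so their calls are not independent. Cd52, a small surface glycoprotein of leukocytes, stood at 409, 591, 365 and 432 CPM in selected cells and at 89.5, 104, 29.7 and 14.9 CPM in other cells, a difference of the age differences of 1.76 ± 0.23 (adjusted p = 1.50e-10). Cd48 (1.71 ± 0.27), Plac8, a gene of myeloid and lymphoid progenitors (1.35 ± 0.22), and the adaptors Tyrobp (1.18 ± 0.23) and Lat2 (1.19 ± 0.25) showed the same form. Mpo (0.99 ± 0.22) and Ccl3 (1.52 ± 0.25) were called as well, Ccl3 with opposite directions on the 2 platforms in selected cells, as its levels above show. Cd69, an early activation antigen, differed in that selected cells themselves held more in aged pools, with 130, 46.1, 235 and 187 CPM against 15.9, 12.1, 10.6 and 4.02 CPM in other cells (2.09 ± 0.32). Thinned to 3000 UMIs it was 1.78 and not called (adjusted p = 0.274). Among called genes that moved alike on both platforms, which leaves out Pf4 (given below), Tespa1 (2.61 ± 0.52), Rgs10 (1.97 ± 0.50) and Rnase6 (1.75 ± 0.40) completed the 5 largest gains. Without the pool block these calls were lost at log2 values of 2.65, 2.06 and 1.75. Fits of this term without 1 pool kept that block. Without aged B the 3 genes stood at 1.81, 0.42 and 1.39 (adjusted p = 0.646, 1 and 0.690). Without young A they kept their size, at 2.68, 1.93 and 1.53, but were not called (adjusted p = 0.0821, 0.789 and 0.431), as was Rgs10 without young B (1.97, adjusted p = 0.238). Rgs10 also stood at only 0.35 with 4 or more rule genes and 0.36 when thinned (adjusted p = 1 for each), and Rnase6 was 1.29 and not called with 4 or more rule genes or without cells that met another rule (adjusted p = 0.960 and 0.717). Thinned, Tespa1 (2.75) and Rnase6 (1.76) kept their size but not the call, and Rnase6 was not called by DESeq2 (1.76, adjusted p = 0.111).

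Cpa3 was called in this contrast as well (1.18 ± 0.23, adjusted p = 1.96e-04), being lower in aged other cells by 0.16 on platform A and 1.66 on B. Its value was 0.17 without aged B and 0.80 without young A, with adjusted p-values of 1 and 0.269. DESeq2 gave 1.21 and thinning 1.30, neither of them called (adjusted p = 0.999 and 0.523). Mcpt8 (0.42 ± 0.25) and Prss34 (0.56 ± 0.25) were not called, and their direction turned with the pool left out. They stood at -0.80 and -0.57 without young A and at -1.07 and -0.96 without aged B, not called, but at 1.59 and 1.64 without young B, not called, and at 2.07 and 2.25 without aged A, where both were called. With RLE scaling Prss34 was called at an unchanged size (0.57, adjusted p = 0.00687). Their low counts in other cells were lower in the aged pool of each platform, as was the share of selected cells, and the part of background RNA in this was not tested. Fcer1a (-0.30 ± 0.28) was not called, and its direction also turned with the pool left out. It stood at -1.61 without young A, 0.49 without young B, 1.03 without aged A and -1.37 without aged B.

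Among genes that lost in selected cells, Slpi, Gpr183, Nupr1 and Gata2 had higher levels in aged other cells on both platforms. Slpi, a secreted protease inhibitor, stood at 139.7, 372, 201 and 383 CPM in selected cells but went from 4.33 and 4.36 to 82.8 and 25.01 CPM in other cells (-3.13 ± 0.27, adjusted p = 1.14e-27). It ranged from -1.78 without aged A to -4.38 without aged B, called in both, while DESeq2 gave -3.20 and did not call it (adjusted p = 0.795). Gpr183, an oxysterol receptor, stood at 18.3, 49.0, 14.9 and 35.7 CPM against 0.764, 1.68, 24.2 and 26.0 CPM (-4.86 ± 0.58). Id1 (-3.22 ± 0.42) rested on aged A, where other cells held 52.8 CPM against 4.67, 3.05 and 3.18 CPM in the rest, and was -0.47 without that pool (adjusted p = 1), and DESeq2 did not call it (-2.47, adjusted p = 0.452). Cebpb (-1.86 ± 0.33), near 0 in both B pools, stood at -2.01 without young A and -9.30 without aged A, not called in either fit (adjusted p = 1 for each), nor when thinned (-2.00, adjusted p = 0.0553). B3gnt8 (-1.97 ± 0.51) was -1.54 without young B and -1.27 without aged B, and -0.32 when thinned (adjusted p = 1 for each). It was also not called with 4 or more rule genes (adjusted p = 0.532), with all barcodes (0.0527), with no low-count filter (0.0522) or without cells that met another rule (0.258). Nupr1 was called at -2.09 ± 0.44 but turned to 8.51 without young B, since young A held 0 UMIs of it, and was -1.75 without aged B (adjusted p = 0.134), -0.42 with DESeq2 (0.999) and 0.19 when thinned (1), whereas Clu was not called (1.03 ± 1.26). Gata2 was called at -1.07 ± 0.24, with log2 age ratios of -0.29 and -0.49 in selected cells and 0.51 and 0.70 in other cells on platforms A and B. Pf4, a platelet chemokine called at 3.03 ± 0.30, rested on 1 aged B cell with 289 UMIs and stood at 36.0, 20.8, 19.6 and 28.9 CPM without the highest cell of each pool.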

How the data were processed

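The authors deposited raw UMI counts per gene and barcode, made with Cell Ranger 2.2.0 on GRCm38.p4 (mm10) per the labels, with 28692 genes listed. Gene coordinates are from GENCODE on GRCm38. The members and gene lists were chosen with earlier results of these data known. Counts were summed per pool and class and tested with edgeR 4.0.16 (quasi-likelihood, TMM, filterByExpr) in R 4.3.3, with Benjamini-Hochberg adjustment at 0.05. Class and class by age contrasts had the pool as a block. Contrasts of age within a class had the platform letter, since deviations of same-letter pools from their age means correlated. The correlation was 0.428 over 3840 genes in selected cells and 0.485 over 13560 in other cells. Fits of age within a class without 1 pool had no platform block, whereas class and class by age fits without 1 pool kept the pool block. The lone pool was assumed to vary like the other age.

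Genes named were the 10 (class), 8 (gated classes) or 5 (class by age) genes past the threshold with the greatest change each way that moved alike in all pools, or for age on both platforms. For the class contrasts they also held a UMI in at least 10% of the higher class. Added to these were listed genes and Mcpt8, Prss34, Cpa3, Fcer1a, Nupr1 and Clu. Plac8 and Selp, and listed genes named for the class by age term, were chosen after their values were seen. Log2 ratios per platform used CPM + 1. Alternatives were DESeq2 1.42.0, RLE scaling, no block, no low-count filter, 2 or 4 rule genes, all barcodes, thinning to 3000 UMIs (which left out 0, 50, 176 and 4 cells), leaving out cells of other rules, and leaving out each pool. The comparison with neutrophil-gated cells had no alternative for rule genes, barcodes or cells of other rules. It had a neutrophil rule of 3 or more genes instead. On simulated data with 100 genes changed 4-fold, edgeR found 78 in the class contrast (3 false calls), 86 for age within members (8 false) and 41 for class by age (1 false). Of 100 genes changed 2-fold it found 49, 23 and 9. One gene of the fixed lists is not reported here.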

Additional observations from a re-analysis of the deposited data

Results flagged for a closer look

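The age difference of selected cells departed from that of the other cells of the same pools (edgeR class by age term, Benjamini-Hochberg adjustment over 12492 genes) for these genes named above, given as the log2 difference of the age differences. Those with a gain in selected cells were Tespa1 (2.61), Cd69 (2.09), Rgs10 (1.97), Cd52 (1.76), Rnase6 (1.75) and Cpa3 (1.18). Those with a loss were Gpr183 (-4.86), Id1 (-3.22), Slpi (-3.13), Nupr1 (-2.09), B3gnt8 (-1.97) and Cebpb (-1.86). None of these calls held without the pool block. Many were also lost in other alternatives given above, among them those of Rgs10, Cpa3, Id1, Nupr1, B3gnt8 and Cebpb. Nupr1 also changed sign in some. With 2 pools per age no group was large enough to be tested for outlying samples.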

How the results depend on the processing

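The difference in share between ages kept its direction under each alternative run, from -0.945 (thinned) to -1.69 percentage points (2 or more rule genes), and from -1.01 to -1.56 with 1 pool left out. Counts of called genes moved more. Without the replicate block the fits called 1016 genes in selected against other cells (2991 with it), 431 against neutrophil-gated (1411), 759 against erythroid-gated (1734), and 0 for age within selected cells (1), class by age (39) and age in other cells (168). DESeq2 called 1872, 757, 999, 19 for class by age and 513 for age in other cells. Thinned to 3000 UMIs, counts were 1673, 555, 708 and 8 for class by age. Age within selected cells gave 23 calls with no low-count filter and 2 with 4 or more rule genes, and class by age gave 63 with 2 or more. Leaving out 1 pool gave 1892 to 2768 genes in the class contrast, 692 to 1339 against neutrophil-gated and 1161 to 1770 against erythroid-gated cells, 0 to 33 for age within selected cells, 20 to 51 for class by age and 0 to 295 for age in other cells. Nupr1 reversed in the class by age term when thinned (0.19) and without young B (8.51), and stood at -3.60 without young A. Over the 74 values of named genes, 751 alternatives stayed on the same side of the threshold, among them uncalled values that changed sign, such as Mcpt8 for age within selected cells (-0.23, and 0.29 without young B). In 55 the call was lost and in 7 gained. With 2 pools per age, shares cannot reach a p below 0.33, and with 30 to 43 selected cells in 3 pools, low transcripts rest on a few UMIs.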
